A study of Mus musculus with 42 samples.

Results

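Macrophages taken from old mice at zeitgeber time 20 (ZT20, hours after the start of the light phase) were compared with macrophages taken from young mice at the same time. The comparison holds 6 of the 42 libraries of the series, chosen by their labels: 3 libraries of old animals and 3 of young animals at ZT20. All animals were C57BL/6 mice, with ages of 18 to 20 months in the old group and 2 to 3 months in the young group, and the labels name no further allele, agent or treatment in either group. The other 36 libraries, 3 for each age at ZT0, 4, 8, 12, 16 and 24, entered the fit so that the spread between libraries was estimated over all 14 groups. The labels name neither the tissue of origin nor the way the macrophages were purified. They do not say that each library of a group is its own animal, and p-values therefore reflect only how far these libraries spread, which may be technical. The authors deposited each age as a table of its own, so that age and any batch tied to it cannot be told apart.

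Macrophages that live in a tissue are a mixture of cells seeded early in life, which renew themselves by division, and cells that enter later from blood monocytes. In the peritoneal cavity the long-lived cells carry the transcription factor GATA6 and the adhesion protein ICAM2, while the monocyte-derived cells carry the chemokine receptor CCR2 and the secreted protein RELM alpha. Macrophages also hold a circadian clock, in which an activator pair drives its own repressors over the day, and at ZT20, late in the dark phase, mice on a standard cycle are in their active phase.

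Values are rescaled reads, that is, 3' end reads of a gene divided by a size factor computed over all 42 libraries together. The young ZT20 libraries held 8755332 to 10108722 reads in genes and the old ones 7412578 to 9900778, against 4864402 to 15587030 over the series. Old library 2 had the most genes above 0 (16988) and the lowest share of mitochondrial reads (1.35%) of all 42 libraries. The share of mitochondrial reads in the 6 libraries was 1.45% to 1.65% in the young and 1.35% to 2.08% in the old. The labelled cell type was checked with 8 macrophage markers, among them Adgre1, Csf1r, Mertk and Itgam. All 8 were detected in each library, their summed level was 282022 to 314650 in young and 221951 to 303701 in old libraries, and none differed by age at ZT20 (limma adjusted p of 0.521 for Cd68 and higher for the rest). The resident peritoneal markers Gata6 (young 1296 to 1407, old 1262 to 1829 rescaled reads), Icam2, Prg4 and Selp were present at both ages, and their ranges overlapped. Of the same list, Cxcl13 was higher and Timd4 lower in each old library than in each young one.

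At ZT20, 127 genes were higher and 73 were lower in old macrophages. These 200 genes are 1.65% of the 12109 genes tested, 1.05% for the higher and 0.603% for the lower direction. The threshold for a call was 0.05 for the limma p on log2(rescaled reads + 1), adjusted by Benjamini-Hochberg. On that scale the median size of the difference, without its sign, was 1.38 over the called genes and 0.20 over all genes tested. With its sign, the median over all genes tested was 0.00. At least 2-fold differences were found in 108 of the higher and 46 of the lower genes. In 199 of the 200 the libraries of the ages did not overlap, against 19.2% of all genes tested. The exception was Apobec3, an antiviral deaminase gene (kept in 2 of the 6 fits that leave out 1 library, adjusted p up to 0.347). The plot of fold against level shows called genes at low and at high levels.

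**Figure D1:**
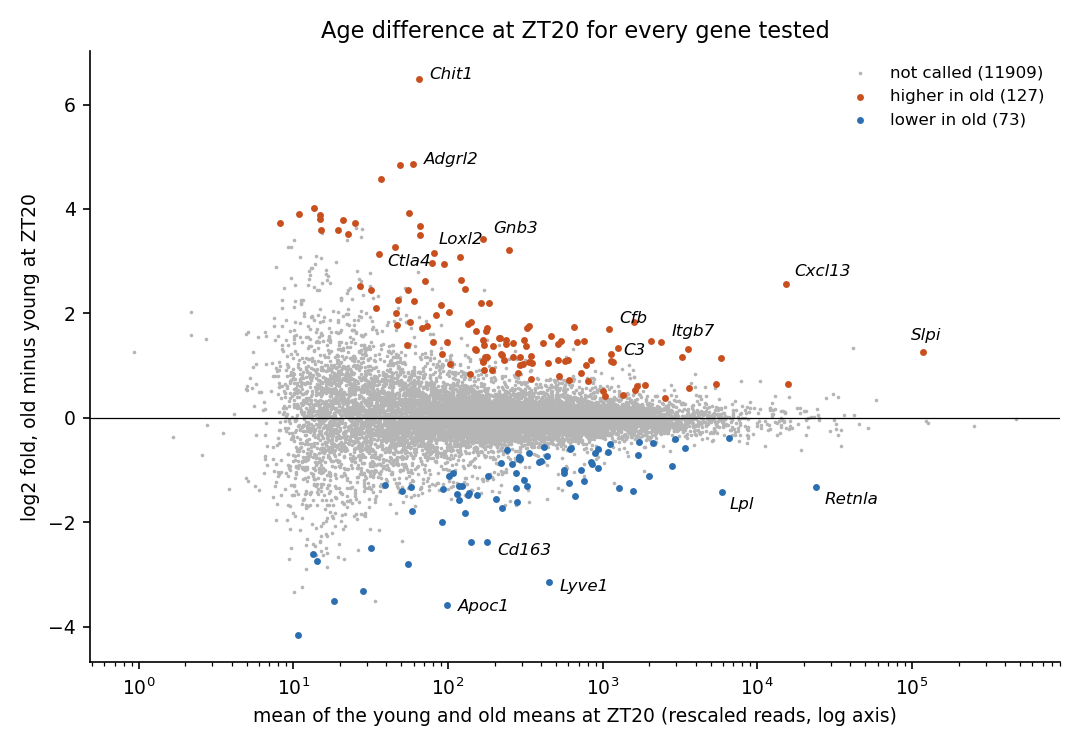
Each point is 1 of the 12109 genes tested. The horizontal axis is the mean of the young and the old mean at ZT20 in rescaled reads (log axis), and the vertical axis is the log2 fold, old minus young. Orange points mark the 127 genes called higher and blue points the 73 called lower in old macrophages.

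Many calls were lost when 1 library was left out. Such a fit also has fewer libraries in 1 group, so a lost call need not rest on the library left out. Of the 127 higher and 73 lower genes, 24 and 9 kept their call without old library 1, 41 and 17 without young library 1, 42 and 14 without young library 2, and 47 and 41 without old library 2. Without old library 3 the numbers kept were 101 and 45, and without young library 3 they were 97 and 44. The sign did not change for any of the 200 genes in the alternative settings that tested it, 18 to 20 for each gene. This says little about stability, since the ages did not overlap in 199 of them and such settings could hardly reverse a sign. The 26 genes that kept their call in all 6 of these fits included Cxcl13, Chit1, C3, Cfb, Ctla4, Itgb7, Nfatc1, Sdc4, Rdh12, Gnb3, Enpp5, Ptpn14, Adgrl2, Prss35, Loxl2, Camk2n1, Fam169b and C130026I21Rik, which were higher, and Lyve1, Ide, Arhgap6, Acsl3, Fam129a, Tubb2a and Rnf150, which were lower. For genes outside these 26, the number of the 6 fits that kept the call is given below.

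The lowest p-value belonged to Cxcl13, the chemokine that draws B cells through the receptor CXCR5 and a product of resident peritoneal macrophages (ENSMUSG00000023078, chromosome 5, 95956951 to 95961068, plus strand, build GRCm38). It was at 4965, 3844 and 4444 rescaled reads in the young libraries and at 23251, 23922 and 31658 in the old ones. Each old library stood far above each young one, and the old group was higher 5.92-fold (log2 2.57 ± 0.27 SE, limma adjusted p = 1.76e-07). It was the only 1 of 17 chemokine genes tested that was called, and the list's median log2 fold was 0.07. Ccl6 and Ccl9, chemokines that peritoneal macrophages make in large amounts, had log2 folds of -0.54 and -0.45 without a call (limma adjusted p = 0.166 and 0.161). In bulk RNA a rise of a gene per cell and a rise in the share of cells that express it cannot be told apart, and the same holds for each fall.

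Chit1, chitotriosidase, a chitinase secreted by activated macrophages (ENSMUSG00000026450, chromosome 1, 134111242 to 134151540, plus strand), was nearly off in young cells. The young libraries held 0, 1.75 and 0 rescaled reads and the old ones 170.5, 114 and 102. That is 2 reads in the 3 young against 378 in the 3 old libraries, a ratio of 211 with a 95% exact counting interval of 57.9 to 1746 (limma adjusted p = 5.63e-06). The tetraspanin gene Cd63, of late endosomes and lysosomes, was at 2076, 2187 and 1847 in young and 5977, 5093 and 4263 in old libraries (log2 1.32 ± 0.26 SE, limma adjusted p = 0.00412, lost only without old library 1, at 0.053). The crosslinking enzyme gene Tgm2 was at 54.2, 70.8 and 70.4 in young and 324, 355 and 233 in old libraries (log2 2.19 ± 0.45 SE, limma adjusted p = 0.00611). Tgm2 kept its call in 4 of 6 fits and reached 0.053 in the others, without old library 1 or young library 1.

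C3 and Cfb, complement genes of the alternative pathway, were higher in old macrophages, and a receptor for a fragment of C3 was lower. C3, the central complement component (ENSMUSG00000024164, chromosome 17, 57203970 to 57228136, minus strand), was at 752, 767 and 729 rescaled reads in young and 1494, 1742 and 1517 in old libraries (log2 1.08 ± 0.22 SE, limma adjusted p = 0.00551). Cfb, which encodes factor B, the protease of the alternative C3 convertase (ENSMUSG00000090231, chromosome 17, 34856374 to 34862518, minus strand), was at 458, 505 and 536 in young and 1843, 2159 and 1076 in old libraries (log2 1.70 ± 0.33 SE, limma adjusted p = 0.00412). The old libraries spread 2-fold for Cfb and stayed above each young library. C3ar1, the receptor of the fragment C3a, went the other way, at 2739, 2456 and 2181 in young and 1717, 1646 and 1898 in old libraries (log2 -0.48 ± 0.12 SE, limma adjusted p = 0.0256, kept in 2 of 6 fits and as high as 0.210 in the others). Of 19 complement genes tested, 2 were higher and 1 lower. The 3 chains of C1q had log2 folds of -0.04, -0.33 and -0.13 without a call, and C4b, whose reads may be shared with its near-copy C4a, had 0.71 (limma adjusted p = 0.133).

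The acute phase list had a median log2 fold of 1.26 over 9 genes tested, against 0.00 over all genes, with 2 called higher and 0 lower. In 5 of the 9 the old libraries all exceeded the young ones, against 9.71% of all genes. Slpi, an inhibitor of leukocyte proteases, was at 68919, 77971 and 61558 in young and 136352, 180849 and 183924 in old libraries (log2 1.26 ± 0.30 SE, limma adjusted p = 0.0223). Its groups were well apart, but the call was lost in each of the 6 fits that leave out 1 library, the adjusted p reaching 0.0963. Lrg1, which encodes a secreted leucine-rich glycoprotein, was at 1121, 937 and 1209 in young and 2765, 3509 and 2785 in old libraries (log2 1.47 ± 0.34 SE, limma adjusted p = 0.0163, kept in 2 of 6 fits and reaching 0.100). The serum amyloid gene Saa3 varied widely among old libraries, at 47935, 103968 and 32887 against 20849.6 to 22113 in young, and was not called (log2 1.34 ± 0.46 SE, limma adjusted p = 0.154). The haptoglobin gene Hp had 1.32 (limma adjusted p = 0.0643), while Lcn2, which encodes a siderophore-binding protein, had -0.28.

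**Figure D2:**
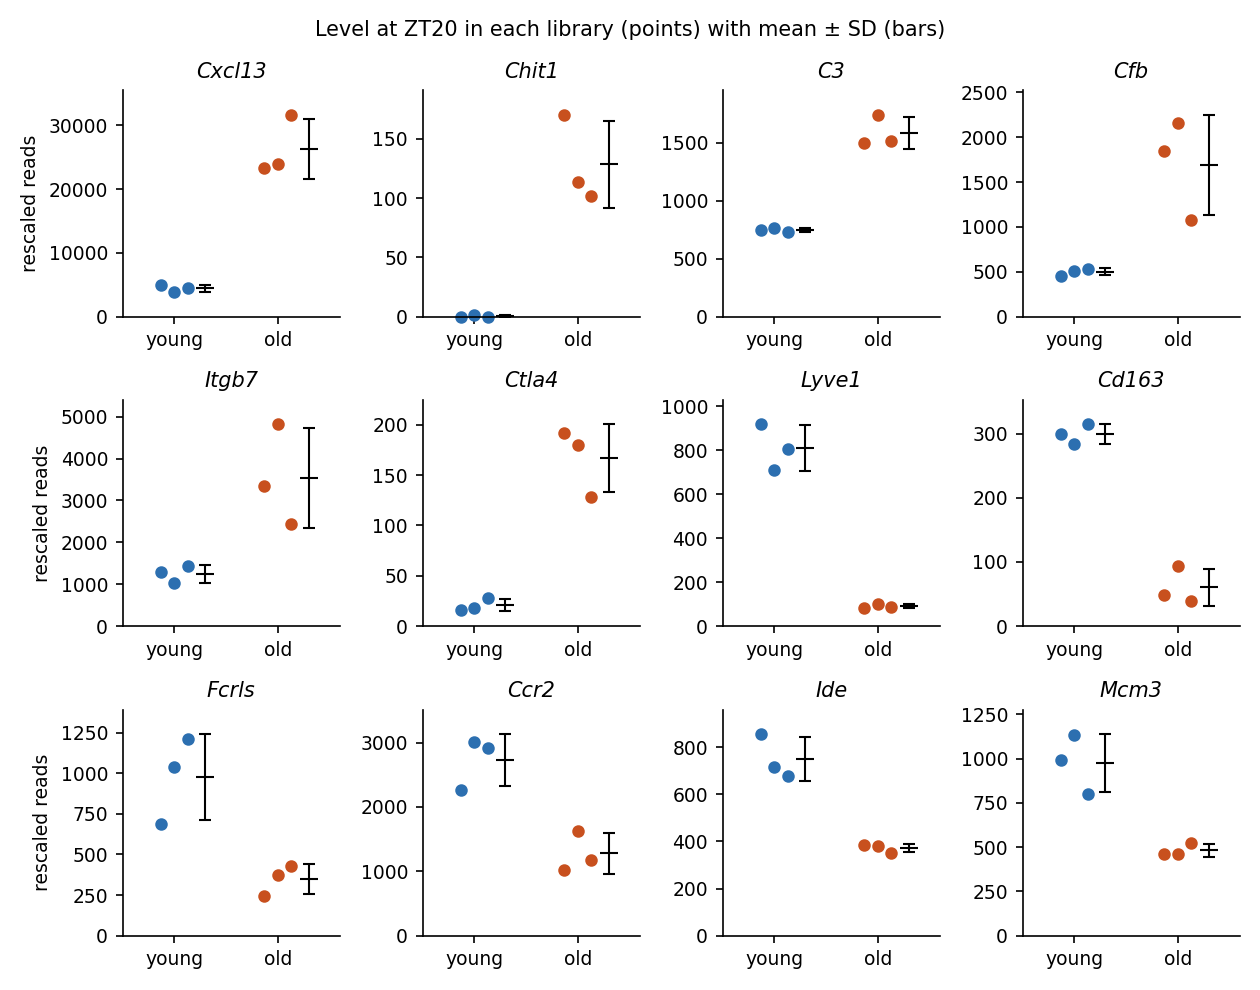
Level in rescaled reads (vertical axes, from 0) of 12 genes in the 3 young (blue) and 3 old (orange) libraries at ZT20, with the mean and SD of each group in black. In each of the 12 genes the old and young libraries do not overlap.

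Genes of antigen presentation by MHC class I and of the interferon response gave 3 calls at ZT20, all higher in old macrophages. Most of their folds at ZT20 were above 0. Of 20 class I genes tested, 2 were called higher and 0 lower, 19 had a positive fold, against 6120 of the 12109 genes tested, and the median was 0.40. H2-K1, a classical heavy chain, was at 12033, 11928 and 13022 rescaled reads in young and 23699.8, 17122 and 17646 in old libraries (log2 0.65 ± 0.17 SE, limma adjusted p = 0.0407, kept in 1 of 6 fits and reaching 0.330). H2-Q7, a nonclassical heavy chain whose reads may be split with near-identical copies, was at 172, 127 and 125 in young and 505, 335 and 314 in old libraries (log2 1.42 ± 0.33 SE, limma adjusted p = 0.0151, kept in 3 of 6 fits and reaching 0.161). Beta-2 microglobulin, the light chain (B2m), had 0.40 without a call (limma adjusted p = 0.313).

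Of 37 interferon-stimulated genes tested, 1 was called higher and 0 lower, 31 had a positive fold, 12 had old libraries all above the young ones (9.71% of all genes tested), and the median log2 fold was 0.22. That 1 of 37 was called is near the 1.05% called higher among all genes. The called gene was Ifi44, an antiviral effector, at 0, 0 and 3.52 rescaled reads in young and 28.8, 27.8 and 21.6 in old libraries (limma adjusted p = 0.0231, kept in 2 of 6 fits and reaching 0.133). The effector Ifit1 was at 9.20, 5.24 and 14.1 in young and 77.0, 22.4 and 35.99 in old libraries, apart but not called (log2 2.04 ± 0.67 SE, limma adjusted p = 0.124). None of 12 GTPases induced by interferon gamma was called at ZT20, and their median log2 fold was 0.38. At the other 6 times the median of these GTPases ranged from -0.74 at ZT4 to 1.57 at ZT12. The median of the interferon-stimulated list ranged from -0.14 at ZT8 to 0.66 at ZT12, and that of the class I list from -0.09 at ZT4 to 0.66 at ZT12.

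Ccr2, Retnla, Fcrls and Clec4b1, which mark monocyte-derived and small peritoneal macrophages, were lower in old cells. Of 16 such genes tested, 0 were called higher and 4 lower (0.603% of all genes tested were called lower), the median log2 fold was -0.81, and in 9 all old libraries were below the young ones (9.45% of all genes). Ccr2, the receptor that lets monocytes leave the marrow and enter tissue (ENSMUSG00000049103, chromosome 9, 124101950 to 124113557, plus strand), was at 2268, 3007 and 2923 rescaled reads in young and 1024, 1630.4 and 1183 in old libraries (log2 -1.11 ± 0.28 SE, limma adjusted p = 0.0283). Retnla, which encodes the secreted protein RELM alpha, was at 28751, 35665 and 38436 in young and 12749, 10473 and 18638 in old libraries (log2 -1.33 ± 0.35 SE, limma adjusted p = 0.0363). Both fell by more than the spread within either age.

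The Fc receptor-like gene Fcrls was at 690.2, 1039.5 and 1208 in young and 243, 374 and 427 in old libraries (log2 -1.49 ± 0.35 SE, limma adjusted p = 0.0163). The lectin gene Clec4b1 was at 356, 509 and 513 in young and 123, 225 and 221 in old libraries (log2 -1.30 ± 0.33 SE, limma adjusted p = 0.0296). The lectin gene Mgl2 was uniform in young libraries, at 483, 487 and 497, and scattered in the old ones, at 82.1, 168 and 288, and it was not called (log2 -1.62 ± 0.46 SE, limma adjusted p = 0.0603). Other members without a call were Folr2 (-1.11), Mrc1 (-0.89) and Clec10a (-0.74), while the fractalkine receptor gene Cx3cr1 had 1.08. Without old library 1, young library 2 or young library 3 none of the 16 was called, and without young library 1 only Fcrls was. Ccr2, Retnla, Fcrls and Clec4b1 kept their call in 1, 1, 3 and 2 of the 6 fits. Their limma adjusted p reached 0.212, 0.186, 0.165 and 0.278. Fitted on the 6 ZT20 libraries alone, 9 of the 16 were called lower and 2 higher. In that fit 217 of all 12109 genes were called lower and 284 higher.

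Lyve1, Cd163, Stab1, Cbr2 and Cd209a, which are outside that list, were lower in old macrophages as well. Lyve1, a hyaluronan receptor of macrophages along vessels and of lymphatic endothelium (ENSMUSG00000030787, chromosome 7, 110850607 to 110863239, minus strand), was at 919, 711 and 808 rescaled reads in young and 84.2, 100.3 and 86.4 in old libraries. The fall was 8.89-fold with no overlap (log2 -3.15 ± 0.63 SE, limma adjusted p = 0.00535), and it kept its call in all 6 fits. Cd163, the scavenger receptor of haemoglobin bound to haptoglobin (ENSMUSG00000008845, chromosome 6, 124304656 to 124330527, plus strand), was at 299.6, 283 and 314 in young and 48.3, 93.1 and 39.6 in old libraries (log2 -2.39 ± 0.50 SE, limma adjusted p = 0.00745, lost only without old library 1, at 0.065). Stab1, a receptor for the uptake of apoptotic cells, was at 369, 287 and 263 in young and 104, 128 and 80.4 in old libraries (log2 -1.56 ± 0.39 SE, limma adjusted p = 0.0277, kept in 2 of 6 fits and reaching 0.174).

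The carbonyl reductase gene Cbr2 was tight in the young libraries, at 355, 329 and 343, and stood at 112, 84.2 and 116 in the old ones (log2 -1.72 ± 0.42 SE, limma adjusted p = 0.0240, kept in 1 of 6 fits and reaching 0.110). Cd209a, a lectin of the DC-SIGN family, was at 361, 416 and 404 in young and 114, 149.5 and 212 in old libraries (log2 -1.35 ± 0.30 SE, limma adjusted p = 0.0111, kept in 4 of 6 fits and reaching 0.132). Both genes are well known from macrophages and dendritic cells of connective tissue. Cd163 and Cd209a belong to a list of 17 scavenger and lectin receptors tested, of which 2 were called lower and 1 higher, with a median log2 fold of -0.15. The higher one was Scarb2, a lysosomal membrane protein, at 4781, 4200.0 and 3635 in young and 6145, 7702 and 5895 in old libraries (log2 0.64 ± 0.15 SE, limma adjusted p = 0.0158, kept in 2 of 6 fits and reaching 0.124). The summed level of 7 dendritic cell markers, of which Cd209a is a member, was 517 to 752 in young and 422 to 661 in old libraries, and these ranges overlapped.

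The chemokine receptor gene Ccr3 lies near Ccr2 on chromosome 9 (124021972 to 124031689), and it was lower in old libraries too. Ccr3, the eotaxin receptor and a member of the eosinophil marker list, was at 84.9, 62.0 and 145 in young and 13.3, 8.06 and 16.8 in old libraries (log2 -2.81 ± 0.77 SE, limma adjusted p = 0.0461). All 3 old libraries were below the young ones, but the call held in none of the 6 fits that leave out 1 library (adjusted p up to 0.182). Ccr1, another gene of the group at 123962124 to 123968692, was not called and its groups overlapped (log2 -0.14 ± 0.19 SE, limma adjusted p = 0.843). These positions were looked up after their values had been seen.

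Another neighbouring pair fell on chromosome 6, also looked up after its values had been seen. Wnt2, a secreted Wnt ligand (17988940 to 18030585, minus strand), was at 2683, 2404 and 1803 rescaled reads in young and 802, 904 and 867 in old libraries (log2 -1.40 ± 0.34 SE, limma adjusted p = 0.0223, kept in 2 of 6 fits and reaching 0.135). Asz1, a gene known from the germ line that lies upstream of it on the same strand (18050964 to 18109061), was at 275, 175 and 257 in young and 27.7, 48.3 and 61.2 in old libraries (log2 -2.38 ± 0.47 SE, limma adjusted p = 0.00469, lost only without old library 1, at 0.0694). Both were lower in old cells at all 7 times. The strand setting of the authors' counting is not given in the sources used here.

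Cxcl13, Lrg1 and Tspan32 were the members of the resident peritoneal programme that were higher in old macrophages, and none was called lower. Of 32 tested, 22 had a positive fold, 8 had all old libraries above and 3 all below the young ones (9.71% and 9.45% of all genes), and the median log2 fold was 0.15. Tspan32, a tetraspanin of blood cells, was at 773, 782 and 946 in young and 1169, 1268 and 1111 in old libraries (log2 0.51 ± 0.12 SE, limma adjusted p = 0.0185, kept in 2 of 6 fits and reaching 0.126). Timd4, the phosphatidylserine receptor of long-lived macrophages, was at 2644, 2582 and 2467 in young and 1753, 2228 and 1491 in old libraries, apart but not called (log2 -0.51 ± 0.22 SE, limma adjusted p = 0.303). The Kruppel-like factor gene Klf4 overlapped between the ages, at 1417 to 1907 in young and 1180.4 to 1744 in old libraries (log2 -0.24 ± 0.20 SE, limma adjusted p = 0.706). Of 14 genes of the general macrophage lineage, 0 were called.

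**Figure D3:**
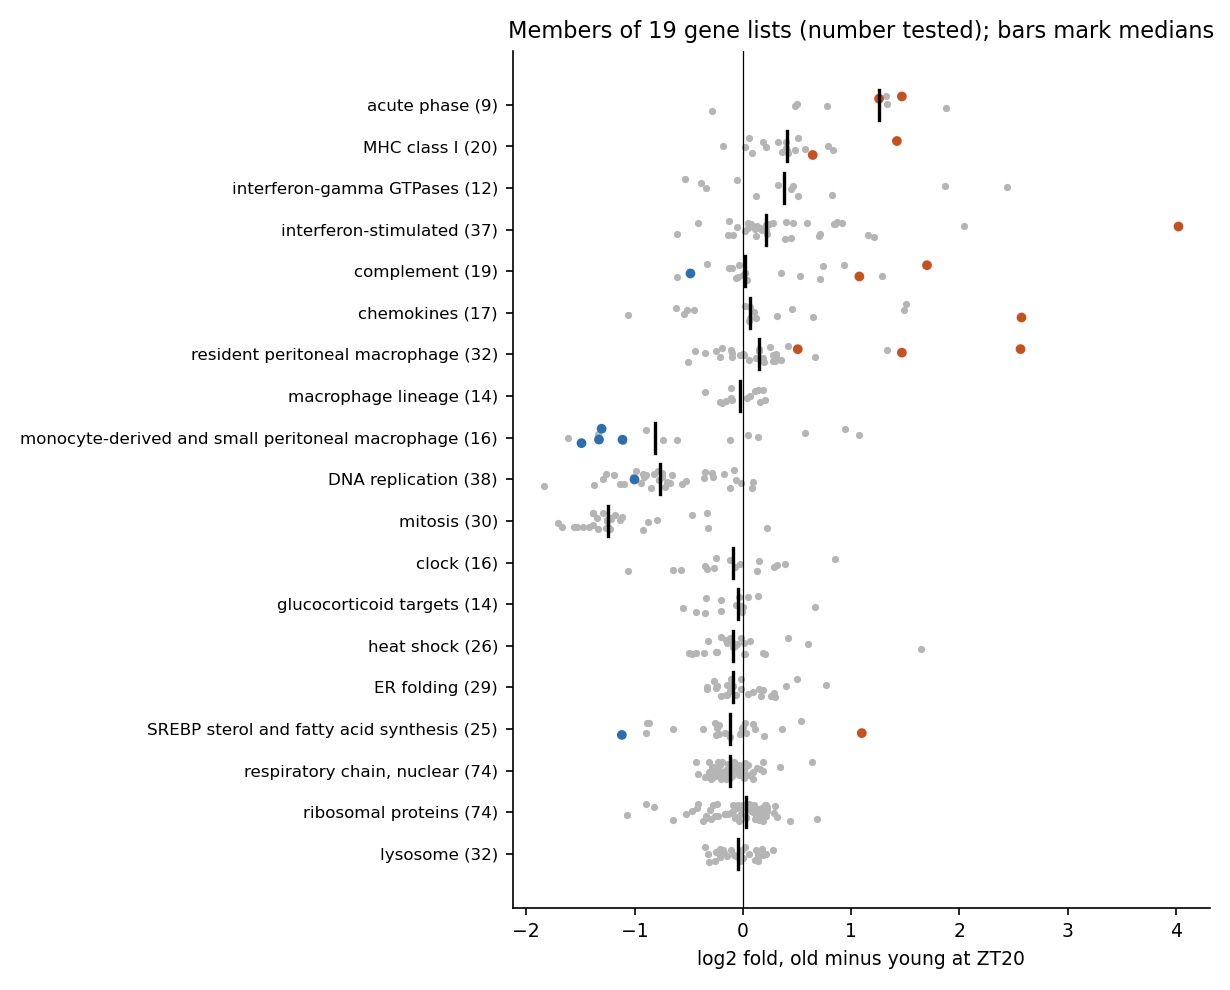
Log2 fold, old minus young at ZT20 (horizontal axis), of every tested member of 19 gene lists (rows, with the number tested). Orange and blue points are members called higher and lower, grey points are not called, and black bars are list medians: the mitosis list has its median at -1.25 and the acute phase list at 1.26.

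Genes of the cell cycle mostly had lower levels in old macrophages, with few calls. Of 38 genes of DNA replication, 1 was called lower and 0 higher, 36 had a negative fold, 23 had all old libraries below the young ones (9.45% of all genes), and the median log2 fold was -0.76. Of 30 genes of mitosis, 0 were called in limma, 23 had an unadjusted p under 0.05 with a lower level, 29 had a negative fold, 20 did not overlap, and the median was -1.25. EdgeR and DESeq2 also called none of the 30, and called 1 gene of DNA replication each. Fitted on the 6 ZT20 libraries alone, limma called 15 of the 38 and 19 of the 30 lower and none higher. That fit called more genes of every kind, 217 lower and 284 higher of 12109, against 73 and 127 in the main fit.

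Mcm3, a subunit of the helicase that opens DNA for replication (ENSMUSG00000041859, chromosome 1, 20802968 to 20820312, minus strand), was at 992, 1131 and 802 rescaled reads in young and 461, 461 and 523 in old libraries (log2 -1.0 ± 0.24 SE, limma adjusted p = 0.0202, kept in 2 of 6 fits and reaching 0.139). Cdc20, an activator of the complex that ends mitosis, was at 173, 145 and 154 in young and 45.2, 47.5 and 67.2 in old libraries without a call (log2 -1.56 ± 0.50 SE, limma adjusted p = 0.112). Top2a, which untangles chromosomes, was at 1582, 2019 and 1377 in young and 697, 511 and 925 in old libraries (log2 -1.24 ± 0.49 SE, limma adjusted p = 0.231). In each of the 3 genes the ages did not overlap, and Mcm3 alone of them passed the threshold.

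Some called genes of the cell cycle outside these lists were also lower. Cks1b, a subunit of cyclin-dependent kinases, was at 375, 529 and 389 in young and 168, 235 and 164 in old libraries (log2 -1.18 ± 0.31 SE, limma adjusted p = 0.0331). Ckap2l, a spindle protein, had -1.99 ± 0.53 SE (limma adjusted p = 0.0384), and Dbf4, the activator of the kinase that fires replication origins, had -0.79 ± 0.20 SE (limma adjusted p = 0.0302). Fignl1 and Brip1, which act in DNA repair, had -1.83 and -1.36. Each of these 5 calls was kept in 1 or 2 of the 6 fits that leave out 1 library, with adjusted p up to 0.282. They were picked from the called genes after their values had been seen. Gadd45a, of a list of 18 genes of senescence and cell cycle arrest, was called higher, and this call was kept in 0 of the 6 fits. It was the only 1 of the 18 called (1.65% of all genes tested were).

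The cell cycle lists were low in old libraries at the other times as well. The median log2 fold of the DNA replication list ranged from -1.10 at ZT4 to -0.45 at ZT0 over the other 6 times, and that of the mitosis list from -1.74 at ZT24 to -1.04 at ZT16. Over the 6 ZT20 libraries the median level of the 30 mitosis genes, as log2(rescaled reads + 1), was 7.42, 7.83 and 7.27 in young and 5.99, 5.82 and 6.70 in old libraries. Old library 3 was thus the nearest to the young group. The markers of monocyte-derived cells moved in the same direction as these lists, and their part in the result was not tested.

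Since the replication and mitosis genes moved together, their promoters were searched for the letters that cell cycle factors read. The window was the 250 bases before the start of each gene, from RefSeq on GRCm38.p6, and both strands were searched. E2F factors, which turn on replication genes, were searched as TTTCCCGC, TTTCGCGC, TTTGCCGC and TTTGGCGC, and the CHR element of mitosis genes as TTTGAA. The 5 windows shown hold matches and belong to genes of these lists or, for Cks1b, to a called cell cycle gene. Capitals mark the matches, on either strand.
Mcm6, chr1:128359706-128359955, minus strand: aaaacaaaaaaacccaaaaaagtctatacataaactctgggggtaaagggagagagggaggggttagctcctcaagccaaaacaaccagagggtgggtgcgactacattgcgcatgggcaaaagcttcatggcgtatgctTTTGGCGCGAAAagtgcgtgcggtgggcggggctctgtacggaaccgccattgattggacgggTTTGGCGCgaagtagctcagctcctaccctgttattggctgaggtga
Pola1, chrX:93632156-93632405, minus strand: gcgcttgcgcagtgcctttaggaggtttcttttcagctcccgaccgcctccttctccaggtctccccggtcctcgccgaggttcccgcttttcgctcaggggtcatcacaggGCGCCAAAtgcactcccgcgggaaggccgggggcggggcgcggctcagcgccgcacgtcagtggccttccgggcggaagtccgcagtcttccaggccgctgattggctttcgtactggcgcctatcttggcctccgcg
Cdc20, chr4:118437344-118437593, minus strand: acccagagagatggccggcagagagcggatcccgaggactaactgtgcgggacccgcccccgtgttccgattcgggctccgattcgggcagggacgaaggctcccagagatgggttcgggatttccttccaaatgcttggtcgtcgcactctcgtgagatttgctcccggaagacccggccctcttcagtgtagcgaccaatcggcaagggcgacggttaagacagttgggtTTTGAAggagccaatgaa
Cks1b, chr3:89418292-89418541, minus strand: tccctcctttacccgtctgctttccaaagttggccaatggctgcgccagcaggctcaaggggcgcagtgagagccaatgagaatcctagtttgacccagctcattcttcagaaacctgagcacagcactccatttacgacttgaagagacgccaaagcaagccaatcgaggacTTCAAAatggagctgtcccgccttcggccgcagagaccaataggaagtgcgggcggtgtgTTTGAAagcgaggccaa
Top2a, chr11:99024190-99024439, minus strand: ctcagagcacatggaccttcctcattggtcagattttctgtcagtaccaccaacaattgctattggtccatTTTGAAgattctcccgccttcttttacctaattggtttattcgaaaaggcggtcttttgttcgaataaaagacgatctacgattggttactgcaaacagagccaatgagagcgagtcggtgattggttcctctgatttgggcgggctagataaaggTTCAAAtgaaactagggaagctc
Mcm6 (log2 -0.66, limma adjusted p = 0.129) holds 3 E2F matches, of which a pair on opposite strands overlaps, and Pola1, the catalytic subunit of the polymerase that primes replication (-0.77, limma adjusted p = 0.0893), holds 1. Cdc20 holds 1 CHR match, and Cks1b and Top2a hold 2 each. An E2F match was in 22.9% of 35 windows of the DNA replication list, in 3.85% of 26 windows of the mitosis list and in 1.86% of all 32851 windows of the same length. A CHR match was in 11.4% of the replication windows, 30.8% of the mitosis windows and 16% of all windows. Among the 11529 windows of genes tested, the shares were 3.36% for E2F and 10.8% for CHR. Mcm3, Cenpf and Nusap1 have neither match in this window.

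Several genes known from B cells were higher in old libraries, where the summed markers of those cells were higher too. The summed level of 10 B cell markers was 13882, 11950 and 18711 rescaled reads in young and 31196, 24760 and 20130 in old libraries, all 10 had a positive log2 fold (median 0.75), and 1 was called, Fcmr. None of the 10 was at 0. Ms4a1, which encodes CD20, was at 2625, 2228 and 3606 in young and 6147, 5578 and 3518 in old libraries, so old library 3 fell within the young range (log2 0.84 ± 0.27 SE, limma adjusted p = 0.117). Fcmr, the Fc receptor of IgM, was at 286, 405 and 475 in young and 1543, 657 and 1166 in old libraries (log2 1.47 ± 0.36 SE, limma adjusted p = 0.0255, kept in 2 of 6 fits and reaching 0.235). Fitted on the 6 ZT20 libraries alone, 7 of the 10 were called higher, as were 284 of all 12109 genes.

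Called genes known from lymphocytes were picked after their values had been seen. Itgb7, the integrin beta 7 chain that guides lymphocytes to the gut (ENSMUSG00000001281, chromosome 15, 102215995 to 102231944, minus strand), was at 1291, 1026 and 1446 rescaled reads in young and 3357, 4819 and 2447 in old libraries (log2 1.46 ± 0.24 SE, limma adjusted p = 0.000686). Ctla4, an inhibitory receptor (ENSMUSG00000026011, chromosome 1, 60887000 to 60915832, plus strand), was at 16.4, 18.3 and 28.2 in young and 192, 180.0 and 128 in old libraries, a 7.73-fold difference (log2 2.95 ± 0.55 SE, limma adjusted p = 0.00272). Nfatc1, a transcription factor of antigen receptor signalling, was at 643, 529 and 862 in young and 1869.9, 1539.9 and 1304 in old libraries (log2 1.23 ± 0.22 SE, limma adjusted p = 0.00160). These 3 kept their call in all 6 fits, and the lowest old library was above the highest young one in each.

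Further genes of this kind had smaller margins. Igkc, the constant part of the kappa light chain, was at 3755, 2879 and 4311 in young and 9524, 7052 and 7490.1 in old libraries (log2 1.14 ± 0.24 SE, limma adjusted p = 0.00767, kept in 4 of 6 fits and reaching 0.0888). Cd22 (1.09 ± 0.26 SE), the inhibitory lectin of B cells, and Mzb1 (1.16 ± 0.27 SE), which helps antibody assembly, were called as well, as were the plasma cell factor Prdm1 (1.54 ± 0.39 SE), the receptor subunit Il5ra (1.21 ± 0.32 SE) and Pdcd1lg2 (2.10 ± 0.54 SE), which encodes PD-L2. Each of these 5 calls was kept in 1 or 2 of 6 fits, with adjusted p up to 0.278. Il5ra is also in the list of 5 eosinophil markers, of which 2 were tested. The other one tested, Ccr3, was called lower (log2 -2.81). The B cell markers and all of these genes share the direction by age, though not always the order of the old libraries. The part of the B cell markers in these genes was not tested.

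**Figure D4:**
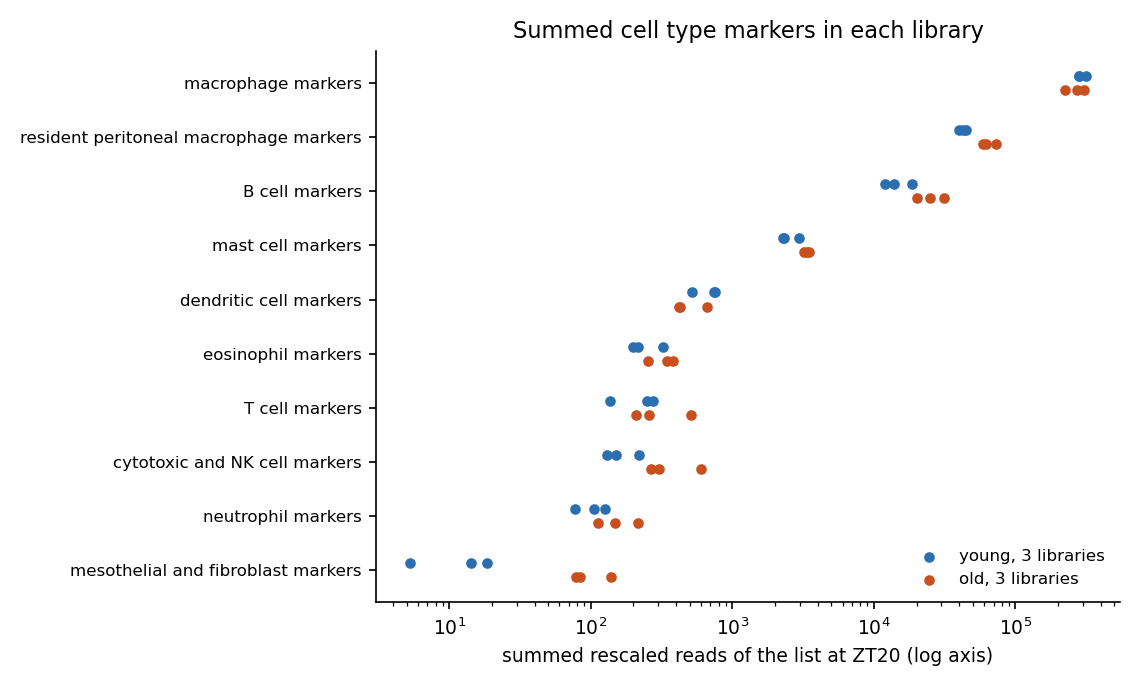
Summed rescaled reads (horizontal log axis) of 10 lists of cell type markers in each young (blue) and old (orange) library at ZT20. The B cell and the mesothelial and fibroblast sums do not overlap between the ages, nor do 3 sums that each rest on 1 gene: the resident peritoneal (Cxcl13), mast cell (Hdc) and cytotoxic and NK cell (Ccl5) sums.

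Markers of other cell types gave fewer reads. The summed level of 10 T cell markers was 137 to 276 in young and 209 to 511 in old libraries, with 0 of 9 tested called. That of 10 cytotoxic and NK cell markers was 131 to 218 and 268 to 602, with 1 of 5 tested called, Gzmk, at 0, 1.75 and 0.880 rescaled reads in young and 56.5, 17.9 and 12.0 in old libraries. This is 3 against 85 reads, a ratio of 31.6 with a 95% exact counting interval of 10.4 to 156, and the call was kept in 1 of 6 fits, with adjusted p up to 0.277. Mast cell markers summed to 2261 to 2936 and 3211 to 3481, and Hdc, histidine decarboxylase, was the 1 of 8 tested whose groups did not overlap (log2 0.94 ± 0.28 SE, limma adjusted p = 0.0782). Without Hdc the mast cell sums were 1369 to 1998 in young and 1451 to 1832 in old libraries, and without Ccl5 the cytotoxic and NK cell sums were 47.2 to 122 in young and 73.4 to 191 in old libraries, and in both the ages overlapped. Of 9 neutrophil markers, Ly6g, Mpo, Ngp and Cxcr2 were at 0 in all 6 libraries. Their summed level was 77.7 to 125 in young and 113 to 217 in old libraries.

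Markers of mesothelium and fibroblasts were scarce but higher in old libraries. Their summed level was 14.3, 18.3 and 5.28 in young and 83.2, 78.8 and 139 in old libraries, with Lum and Pdgfra at 0 in all 6. Dcn, the matrix proteoglycan decorin, was at 0, 8.74 and 1.76 in young and 38.0, 28.6 and 39.6 in old libraries (log2 3.59 ± 0.95 SE, limma adjusted p = 0.0368, kept in 1 of 6 fits and reaching 0.299). Other genes of large rise that are known from stromal, epithelial or nerve cells had low levels too. Loxl2, a lysyl oxidase that crosslinks collagen, was at 41.9, 18.3 and 16.7 in young and 158, 266 and 211 in old libraries (log2 3.09 ± 0.56 SE, limma adjusted p = 0.00204). Gpm6a, a membrane glycoprotein of neurons, was at 8.18, 6.99 and 3.52 in young and 127, 114 and 76.8 in old libraries (log2 3.92 ± 0.80 SE, limma adjusted p = 0.00549, lost only without old library 1, at 0.053). The part of the stromal markers in these genes was not tested.

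Among the other largest rises, the adhesion receptor gene Adgrl2 was at 0, 6.99 and 6.16 rescaled reads in young and 154, 115 and 75.6 in old libraries (log2 4.85 ± 0.81 SE, limma adjusted p = 0.000866). Prss35, which encodes a serine protease-like protein, was at 3.07, 0.874 and 2.64 in young and 62.6, 71.6 and 79.2 in old libraries (log2 4.57 ± 0.89 SE, limma adjusted p = 0.00406). Gnb3, a G protein beta subunit, was at 28.6, 20.1 and 26.4 in young and 468, 331 and 133 in old libraries (log2 3.42 ± 0.51 SE, limma adjusted p = 0.000115). In these 3 genes each old library was well above each young one. The phosphatase gene Ptpn14 had 3.49 ± 0.59 SE, the actin regulator Wipf3 had 4.85 ± 0.96 SE and the homeobox gene Hoxb5 had 3.52 ± 0.84 SE. Wipf3 lost its call only without young library 1, at 0.0685, and Hoxb5 kept it in 2 of 6 fits and reached 0.222.

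Among the largest falls, Apoc1, an apolipoprotein, was at 219.8, 161 and 172 in young and 17.5, 12.5 and 13.2 in old libraries (log2 -3.59 ± 0.81 SE, limma adjusted p = 0.0132, kept in 2 of 6 fits and reaching 0.079). Lmo1, a nuclear LIM protein gene, was at 19.4, 20.1 and 23.8 in young and 0, 0.895 and 0 in old libraries. These are 69 against 1 read, a ratio of 61.9 with a 95% exact counting interval of 10.8 to 2481, and the call (limma adjusted p = 0.00995) was lost only without old library 1, at 0.0694. Both genes were at low levels in each old library. The scaffold gene Shank3 had -3.32 ± 0.88 SE and the phosphodiesterase gene Pde5a -3.51 ± 0.95 SE, but neither call was kept in any of the 6 fits that leave out 1 library, with adjusted p up to 0.209.

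Genes of metabolism gave scattered calls. Ide, which encodes the protease that degrades insulin (ENSMUSG00000056999, chromosome 19, 37268743 to 37337852, minus strand), had the third lowest p-value, at 857, 717 and 676 rescaled reads in young and 386, 379 and 353 in old libraries (log2 -1.0 ± 0.14 SE, limma adjusted p = 8.06e-05). The lipase gene Lpl, which frees fatty acids from lipoproteins, was at 7728, 10179 and 7632 in young and 2259, 3214 and 4285 in old libraries (log2 -1.42 ± 0.28 SE, limma adjusted p = 0.00412, lost only without old library 1, at 0.0764). Both fell with no overlap between the ages. Acsl3, which activates fatty acids, was lower by -1.31 ± 0.25 SE (log2, limma adjusted p = 0.00283) and kept its call in all 6 fits.

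Of 25 genes of sterol and fatty acid synthesis, Scd1 was called higher, and the median log2 fold was -0.12. Scd1, the desaturase that makes oleic acid, was at 452, 466 and 693 in young and 1445, 1178 and 846 in old libraries (log2 1.10 ± 0.28 SE, limma adjusted p = 0.0279, kept in 2 of 6 fits and reaching 0.233). All 3 old libraries were above the young ones. Of 23 genes of the hypoxia response and glycolysis, Egln3, a prolyl hydroxylase, was the only 1 called (log2 1.01 ± 0.26 SE, limma adjusted p = 0.0294, kept in 1 of 6 fits and reaching 0.208). Of 74 nuclear genes of the respiratory chain 0 were called, 59 had a negative fold and the median was -0.12, and 0 were called of 74 ribosomal protein, 31 proteasome and 32 lysosome genes.

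No gene of the circadian clock passed the test for age at ZT20. Of 16 clock genes tested, 0 were called, 1 had an unadjusted p under 0.05, and the median log2 fold was -0.09. EdgeR and DESeq2 called none of the 16 either. The activator gene Arntl was at 165, 188 and 194 rescaled reads in young and 205, 192 and 278 in old libraries (log2 0.29 ± 0.23 SE, limma adjusted p = 0.684). The repressor gene Per2 was at 449.9, 302 and 288 in young and 171, 217 and 323 in old libraries (log2 -0.57 ± 0.33 SE, limma adjusted p = 0.505). In both genes the ages overlapped.

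Of the 16 genes, 3 did not overlap between the ages, 2 higher (Bhlhe41 and Nfil3) and 1 lower (Dbp), against 19.2% of all genes tested. Dbp, an output factor of the clock, was at 72.6, 81.2 and 66.0 in young and 45.2, 60.9 and 35.99 in old libraries (log2 -0.65 ± 0.45 SE, limma adjusted p = 0.612), while its log2 fold at ZT4 was 2.05. The repressor gene Bhlhe41, the member with an unadjusted p under 0.05, was at 714, 524 and 828 in young and 1547, 1279 and 928 in old libraries (log2 0.86 ± 0.29 SE, limma adjusted p = 0.144), and it was called in the fit of the 6 ZT20 libraries alone. Of 26 heat shock genes, 14 glucocorticoid targets and 29 folding factors of the endoplasmic reticulum, 0 were called, with medians of -0.09, -0.05 and -0.09. Fkbp5, a target of the glucocorticoid receptor, spread more within each age than between them, at 281, 511 and 165 in young and 206, 443 and 230.3 in old libraries.

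The age difference at ZT20 was then tested against the mean age difference at the other 6 times. No gene was called (0% of 12109), with the lowest limma adjusted p at 1.0. The unadjusted limma p was under 0.05 for 332 genes, fewer than the 605 that this threshold would give by chance over 12109 genes. EdgeR and DESeq2 called 0 as well. The 200 genes called at ZT20 had the same sign at the other times in 93.5% (ZT16) to 98.5% (ZT8 and ZT12) of cases, and 173 had it at all 6, as did 2105 of the 12109 genes tested. Calls of the same age comparison at the other times numbered 96 at ZT0, 163 at ZT4, 485 at ZT8, 250 at ZT12, 129 at ZT16 and 253 at ZT24. Of the 200 genes, 118 were also called with the same sign at ZT8 and 42 at ZT4. Across genes, which are not independent and share the 3' libraries of each age table, the log2 folds at ZT20 correlated with those at the other times at r = 0.457 (ZT16) to 0.601 (ZT8).

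The genes with the lowest p for a difference between ZT20 and the other times are given as values, since none passed the test. Hook2, a dynein adaptor (ENSMUSG00000052566, chromosome 8, 84990603 to 85003349, plus strand), was at 30.7, 28.0 and 29.9 rescaled reads in young and 88.3, 79.7 and 69.6 in old libraries at ZT20 (log2 1.39 ± 0.30 SE, limma adjusted p = 0.00935, kept in 4 of 6 fits and reaching 0.0764). Its log2 fold at the other times lay between -0.16 and 0.45. Rassf2, a tumour suppressor of the Ras association family, was at 1303, 1351 and 1779 in young and 2552, 2259 and 2015 in old libraries (log2 0.63 ± 0.13 SE, limma adjusted p = 0.00660, kept in 3 of 6 fits and reaching 0.0888), with -0.12 to 0.30 at the other times. Both were called at ZT20 without standing out from the other times by the test of that difference.

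Sqor, the mitochondrial enzyme that oxidises sulfide, was at 543, 495 and 459 in young and 291, 396 and 331 in old libraries (log2 -0.56 ± 0.15 SE, limma adjusted p = 0.0349, kept in 2 of 6 fits and reaching 0.276), with -0.26 to 0.14 at the other times. Lonrf1, a ubiquitin ligase gene, had the lowest p of that test. It was at 330.3, 247 and 214 in young and 198, 204 and 209.9 in old libraries (log2 -0.35 ± 0.24 SE, not called), whereas its log2 fold was between 0.32 and 1.09 at the other times. For Cxcl13 the log2 fold at the other times was 2.28 to 3.09, for C3 0.99 to 2.31 and for Lyve1 -2.93 to -1.64, so that these differences recur at each time.

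**Figure D5:**
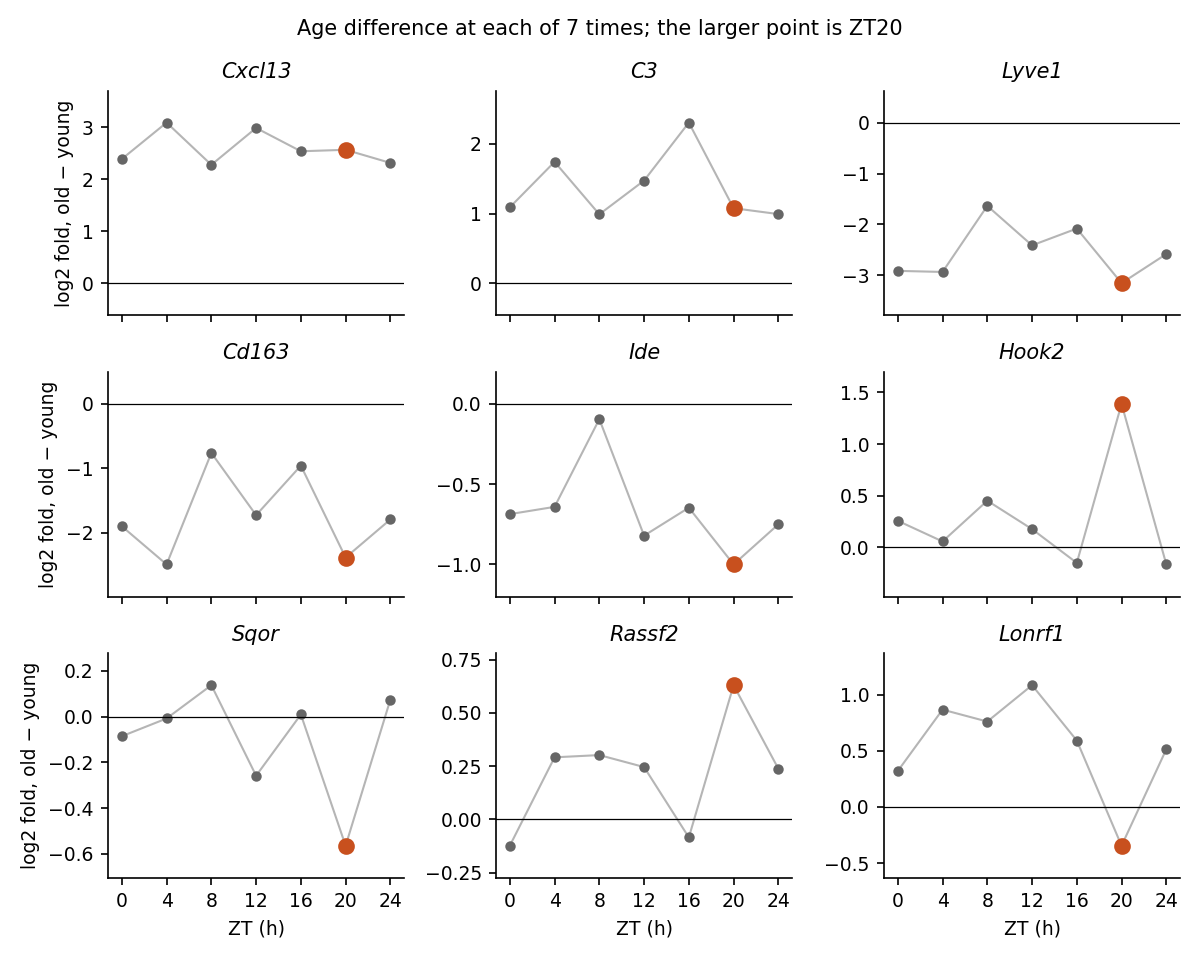
Log2 fold, old minus young (vertical axes), at 7 zeitgeber times (horizontal axis, hours) for 9 genes, each point from 3 libraries of each age, with ZT20 as the larger orange point. Cxcl13, C3 and Lyve1 keep their sign at each time, and Hook2, Sqor, Rassf2 and Lonrf1, chosen for a low p of ZT20 against the other times, stand apart at ZT20 without passing that test.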

How the data were processed

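RNA of macrophages was sequenced as QuantSeq 3' end libraries, per the labels' protocols. Per the submitters' processing notes, the tools were STAR and DESeq2 and the build was mm10. How genes were counted, with which annotation and strand setting, is not given in the sources used here. What the authors deposited is a signal: reads divided by a factor per library, in a separate table for each age. Values were divided by the smallest one of their library, which turned 100.0% of them into whole reads (tolerance 0.001). Median-of-ratios factors were then computed over the 42 libraries at once. Of 47643 genes, 47224 had a symbol in GENCODE M21 (GRCm38), the source of positions, and 22533 had no read anywhere. ZT20 libraries held 7412578 to 10108722 reads.

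Limma-trend (limma 3.58.1, R 4.3.3) was fitted on log2(rescaled reads + 1) with 14 group means, over genes with a mean of at least 10. Contrasts were old minus young at ZT20, and that difference minus its mean over the other 6 times. On this scale the change of a gene with few reads is understated. Alternatives were edgeR 4.0.16 and DESeq2 1.42.0 on recovered reads, other scalings, pseudocounts and filters, array weights, a replicate block, the 6 ZT20 libraries alone, and each ZT20 library left out. On simulated data with 12000 genes the ZT20 test recovered 10.4%, 56.7% and 86.4% of changes of log2 0.5, 1 and 2, and 7.27% of its calls were unchanged genes.

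Genes named are, among called genes without overlap, the 15 of largest rise and the 15 of largest fall (mean of at least 20 in the higher group), the 10 lowest p of each contrast, members of low p of each list, markers and Klf4. The first 2 kinds leave out unnamed models, antigen receptor segments and pseudogenes, and some genes the rule gives are not reported here. Names outside the rule are said to be chosen after their values were seen, which also holds for the genes listed as kept in all 6 fits and for Apobec3, Tgm2, Lcn2, Folr2, Cx3cr1, Top2a, Igkc and Fkbp5. The comparison and the gene lists were chosen with earlier results of these data known. Replicates differed by more than sampling noise (chi-square per gene 9.01 or more). Read counts without molecular identifiers are not independent molecules, so counting intervals cover counting error only.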

Additional observations from a re-analysis of the deposited data

How the results depend on the processing

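All 200 calls at ZT20 kept their direction in the alternative settings that tested the gene (18 to 20 each). With no overlap between the ages in 199 of them, a change of direction could hardly occur. Of the 200, 183 were called by both edgeR and DESeq2. Against 127 higher and 73 lower, edgeR gave 130 and 69 and DESeq2 184 and 99. Larger shifts in the number of calls came from array weights (290 and 220) and from fitting the 6 ZT20 libraries alone (284 and 217), and with no filter on low values, which tests 25110 genes, there were 88 and 38. With each ZT20 library left out in turn the counts ranged from 24 to 139 higher and from 9 to 59 lower. Members of the gene lists called numbered 29, against 13 with no filter, 68 with array weights, 104 with the 6 libraries alone, and 4 to 26 with 1 library left out. For the test of ZT20 against the other times, 0 and 0 became 1 higher (Wasf3) and 2 lower (Hbb-y and Gssos2) with no filter, and 0 to 1 higher and 0 to 0 lower with 1 library left out, the 1 being Lrrc75a without young library 2. Other scalings moved the median log2 fold of all genes by under 0.02.

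Replicate numbers are shared by the ages, but libraries of the same number did not deviate together (r = -0.03, -0.00 and -0.04 across genes). No pairing by number was thus seen, though a weak one could be missed with 3 libraries per group. With a replicate block there were 125 higher and 70 lower, and with the block in the 6 libraries alone 238 and 173, with 87 list members called. At 3 libraries per group, about 57% of simulated log2 changes of 1 were recovered, so smaller differences are mostly not detectable here.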
